A study of Mus musculus with 18 samples.

Results

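The matrix metalloproteinases (MMPs), the ADAMTS proteases and the tissue inhibitors of metalloproteinases (TIMPs) were examined in bulk RNA-seq of mouse aorta. The members were all gene symbols of the form Mmp, Adamts or Timp followed by a number and at most 1 letter. This gave 46 genes of the 55453 symbols in the count tables, of which 23 were MMP genes, 19 were ADAMTS genes and 4 were TIMP genes. Each of the 46 matched 1 gene model of the Gencode M21 annotation on GRCm38.

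Homozygous mutants of a CArG box, the serum response factor (SRF) binding site, in the *Tspan2* promoter were compared with wild-type mice in 2 experiments. In the HDR experiment the box had been changed in zygotes with Cas9, an sgRNA and a repair template (*sg/sg*), and the labels list C57BL/6 mice of 12 weeks, with 3 females and 2 males in each genotype. In the PE2 experiment the same box carried a single-base substitution installed by prime editing (*peg/peg*), and the labels list 8-week-old FVB/N/B6(Cg)-Tyrc-2J/J mice, with 3 females and 1 male of the wild type and 4 *peg/peg* females. The paper, unlike the labels, names the same strains for both kinds of editing, with the breeding founders of both mated to C57BL/6J mice. The mutants descend from edited founders, each library is 1 sample of aorta, and the labels name no treatment. There were 5 libraries per genotype in the HDR experiment, with 17290992 to 24880385 counts each, and 4 per genotype in the PE2 experiment, with 38820265 to 44895615 counts each. The labels do not give litters, so p-values measure the spread between these mice.

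MMPs are zinc-dependent enzymes that are made as inactive precursors and, once activated, cut collagens, elastin, fibronectin and other matrix proteins, as well as growth factors and receptors at the cell surface. ADAMTS proteases carry thrombospondin-type repeats. Some cut the large proteoglycans aggrecan and versican, others trim the ends of newly made procollagens or bind fibrillin. TIMPs bind and block the active site of MMPs, TIMP3 also blocks several ADAMTS enzymes and is held in the matrix, and the balance of proteases and inhibitors is known to matter for the elastic lamellae and collagen of the aortic wall.

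The targeted gene was low in every mutant library. *Tspan2* was at 15.95 to 36.6 CPM (counts scaled to library size with TMM factors) in the *sg/sg* libraries against 112 to 265 in their controls, and at 11.9 to 25.5 in the *peg/peg* libraries against 186 to 284. It was called in both experiments by edgeR's quasi-likelihood test (adjusted p = 0.00226 and 0.0292). The PE2 call was lost with a replicate block, with sex as a covariate, in female libraries alone and in 7 of the 8 fits that left out 1 library (edgeR adjusted p of 0.0604 to 0.295), with log2 fold changes of -3.60 to -3.30 in these fits. Summed smooth muscle markers were abundant in all 18 libraries, from 15916 to 52509 CPM, but 1 library stood apart from the others.

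The library labelled *peg/peg* 3 had a median correlation of 0.844 with the other PE2 libraries on the log scale, against 0.967 to 0.977 for each of the others. It held 8 urothelial markers at a summed 1386 CPM, against 5.60 to 62.5 in the other 7 PE2 libraries. Among them *Upk1a*, which encodes a plaque protein of the bladder surface, was at 228.5 CPM against 0.48 to 13.7, and the basal keratin *Krt5* was at 175 CPM against 0.28 to 7.48. Desmin (*Des*) was at 5570 CPM against 92.0 to 111, skeletal muscle markers at a summed 1134 against 8.02 to 21.5 and cardiac markers at 1039 against 47.7 to 176. The skeletal sum was mainly *Acta1* (756 CPM), *Ckm* (300) and *Tnnt3* (74.2), while *Myh4*, *Myh1*, *Atp2a1* and *Mylpf* were at 0.154 to 1.34. The cardiac sum was mainly *Actc1* (509 CPM) and *Tnnt2* (518), while *Myh6* (1.34), *Myl7* (2.88), *Nppa* (0.395) and *Ryr2* (7.78) were low. Elastin (*Eln*) was at 622 CPM against 11617 to 34850, and fat markers were at 180 against 1518 to 5076. These markers go against a label of aorta alone. In the HDR experiment wild-type library 3 also held desmin, at 945 CPM against 44.5 to 111, skeletal muscle markers at a summed 127 CPM against 5.91 to 81.4 and urothelial markers at 156 CPM. Its skeletal sum was mainly *Acta1* (76.9 CPM), *Ckm* (30.6) and *Tnnt3* (16.0), with *Myh4* at 0.331. The urothelial sum was 111 CPM in *sg/sg* library 4, 45.6 in *sg/sg* library 2 and 1.30 to 14.5 in the other HDR libraries. By edgeR no member was called with or without any 1 HDR library. The urothelial, desmin and elastin genes were chosen after their values were seen. The library keeps its label here, and the tests of the PE2 experiment are given with and without it.

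The 2 most abundant members were the inhibitors *Timp2* and *Timp3*. Levels between genes are given as RPKM (TMM-scaled CPM per kilobase of exon), and levels of 1 gene between libraries as CPM. In HDR wild-type aorta *Timp3* was at 144 ± 14.99 RPKM and *Timp2* at 135 ± 10.9 (mean ± SD, n = 5), with libraries that overlapped, and both lay above every library of any other member. In PE2 wild-type aorta *Timp2* was at 225 ± 11.3 RPKM and *Timp3* at 138 ± 8.13 (n = 4), without overlap. In both wild-type groups 12 members reached a mean of 10 RPKM, and 25 (HDR) and 26 (PE2) reached 1 RPKM. The experiments differ in age, labelled strain and table and were scaled apart, so a level of one set beside the other is a description.

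**Figure D1:**
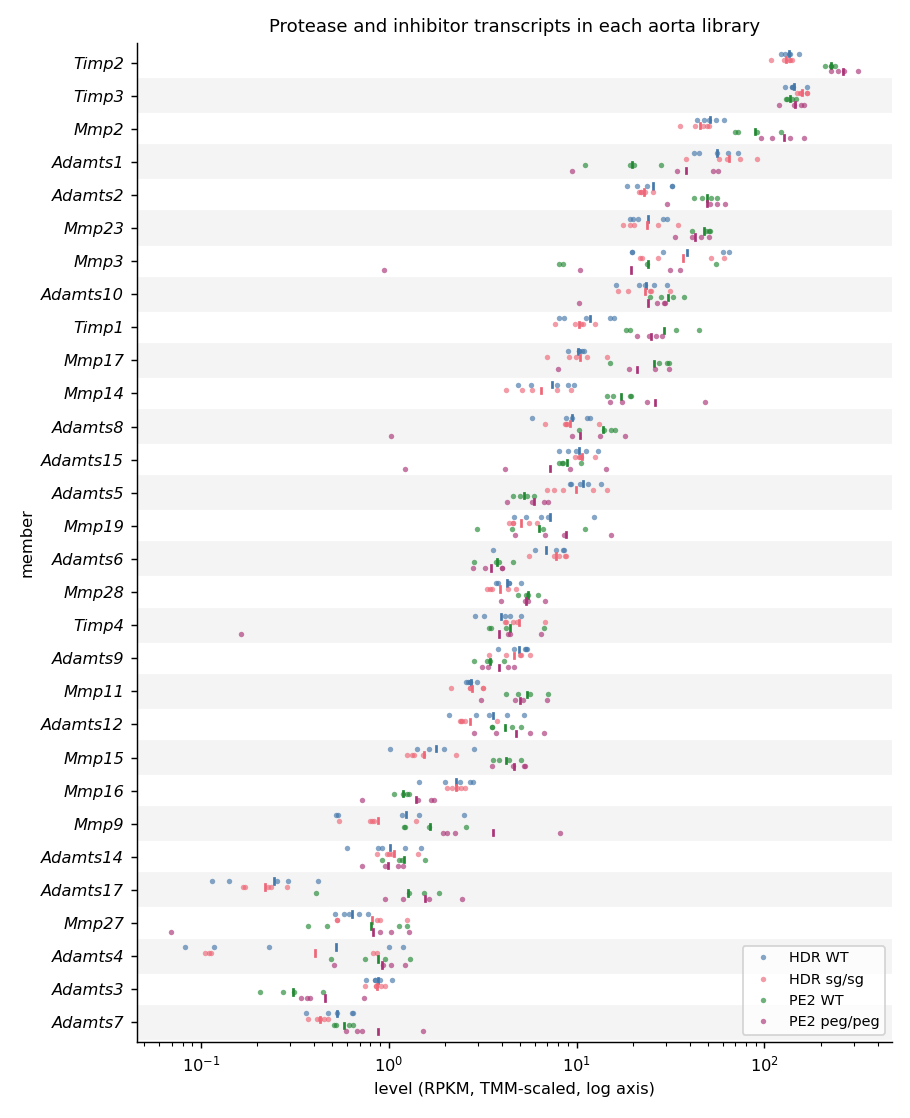
Level of each member with a mean of at least 0.3 RPKM over the wild-type groups, in RPKM on a log axis. Points are libraries (5 HDR WT, 5 HDR *sg/sg*, 4 PE2 WT, 4 PE2 *peg/peg*), bars are group means. By group mean *Timp2* and *Timp3* lie at the top in all 4 groups, but *Mmp2* lies above *Timp3* in the library *peg/peg* 3. The isolated low points of *Mmp3*, *Adamts8*, *Adamts15* and *Timp4* are that library.

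The 4 TIMP genes together made up close to the same part of the summed RPKM of all 46 members in each group. Their share was 49.3% ± 4.60 in HDR wild-type and 50.4% ± 2.21 in *sg/sg* libraries (SD, n = 5). It was 51.6% ± 2.45 in PE2 wild-type and 51.2% ± 3.44 in *peg/peg* libraries (SD, n = 4), or 49.8% ± 2.63 without *peg/peg* 3. The ADAMTS genes made up 25.6% ± 2.04 in HDR wild-type and 18.7% ± 0.695 in PE2 wild-type libraries, and 9.12% in *peg/peg* 3. These shares were not tested.

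*Timp1*, the inducible and soluble inhibitor, was at 11.7 ± 3.60 RPKM in HDR and 29.0 ± 12.7 in PE2 wild-type libraries. *Timp4*, the inhibitor with the narrowest tissue range, was at 3.94 ± 0.886 RPKM in HDR and 4.45 ± 1.52 in PE2 wild-type libraries. In *peg/peg* 3 *Timp4* was at 0.966 CPM, against 20.1 to 39.3 CPM in the other 7 PE2 libraries. All 4 TIMP genes overlap another gene in the annotation. *Timp1*, *Timp3* and *Timp4* lie opposite the synapsin genes *Syn1*, *Syn3* and *Syn2*, and *Timp2* shares its strand with *Cep295nl*. The strand setting of the counting is not stated, so reads of such partners cannot be told apart.

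Of the MMPs, *Mmp2* (gelatinase A, which degrades basement membrane collagen and denatured collagen) was the most abundant. It was at 51.6 ± 6.60 RPKM in HDR and 88.7 ± 24.5 RPKM in PE2 wild-type libraries. *Mmp3* (stromelysin 1, an activator of other MMPs) followed in the HDR group at 38.6 ± 22.1 RPKM, with libraries that overlapped those of *Mmp2*. *Mmp23*, whose product is anchored in the membrane by its amino-terminal end, followed in the PE2 group at 47.9 ± 4.80 RPKM. The membrane-type members *Mmp17* and *Mmp14* were at 10.2 ± 0.725 and 7.41 ± 2.05 RPKM in HDR wild-type libraries and at 25.9 ± 7.44 and 17.2 ± 2.46 in PE2 wild-type libraries. *Mmp14* (MT1-MMP) activates pro-MMP2 at the cell surface together with TIMP2. *Mmp9*, the other gelatinase and a product of leukocytes among other cells, was at 1.24 ± 0.820 and 1.66 ± 0.652 RPKM.

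Of the ADAMTS genes, *Adamts1* (a protease of versican and aggrecan) led in HDR wild-type aorta at 55.8 ± 12.8 RPKM, and its libraries overlapped those of *Mmp2*. In PE2 wild-type aorta it was at 19.6 ± 6.98 RPKM, and *Adamts2*, which removes the amino propeptide of fibrillar procollagens, led at 49.1 ± 6.20 RPKM. *Adamts2* was at 25.5 ± 6.35 RPKM in HDR wild-type libraries. *Adamts10*, linked to fibrillin microfibrils, was at 23.4 ± 5.21 and 30.6 ± 5.50 RPKM in the HDR and PE2 wild-type groups. The proteoglycan-cleaving *Adamts5*, *Adamts15* and *Adamts8* were between 9.45 and 10.8 RPKM in HDR wild-type aorta, whereas *Adamts4*, another aggrecanase, was at 0.526 ± 0.531 RPKM there.

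A further set was at or near 0. The filter on low counts left out 14 members in HDR aorta and 10 in PE2 aorta, and the 10 were among the 14. They were *Adamts13* (the von Willebrand factor protease of liver), the collagenases *Mmp1a*, *Mmp1b*, *Mmp8* and *Mmp13*, the stromelysin *Mmp10*, the matrilysin *Mmp7*, the enamel protease *Mmp20*, and *Mmp21* and *Mmp25*. *Mmp1a*, *Mmp1b*, *Mmp7* and *Mmp20* had no count in any PE2 library. The limit that a count of 0 allows, 3 counts over the 329750777 counts of that table, is 0.0091 CPM, for counting error only. *Mmp1a* and *Mmp1b*, and *Mmp3* and *Mmp10*, are related genes, and whether reads were split or lost between them was not tested.

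Several of these silent genes lie beside *Mmp3*. A cluster of 10 MMP genes runs from *Mmp13* to *Mmp7* over 427 kb of chromosome 9 (7272514 to 7699585, GRCm38). In HDR wild-type libraries *Mmp3* was at 35.5, 35.5, 51.7, 108 and 117 CPM. In the same cluster *Mmp10* was at 0.0546 CPM or less in all HDR libraries, *Mmp13* at 0.296 or less and *Mmp12* (macrophage elastase) between 0.11 and 1.17. *Mmp27* was between 1.14 and 2.77 CPM. Of these genes *Mmp3* was thus the only one above 3 CPM in the HDR experiment.

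The 100 bases before the start site of *Mmp3*, of 2 near-silent members of the cluster and of *Adamts1* are shown because matches to the same motifs lie before members at very different levels. They were read from RefSeq (GRCm38.p6) at chr9:7445722-7445821 (plus strand), chr9:7272414-7272513 (plus), chr9:7502242-7502341 (plus) and chr16:85803114-85803213 (minus). Capitals mark an AP-1 match (TGANTCA, bound by the Fos and Jun families) and a match to the letters TATAAA of the TATA box, wherever it lies.
Mmp3: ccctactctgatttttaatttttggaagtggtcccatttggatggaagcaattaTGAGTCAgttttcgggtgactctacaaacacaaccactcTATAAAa
Mmp13: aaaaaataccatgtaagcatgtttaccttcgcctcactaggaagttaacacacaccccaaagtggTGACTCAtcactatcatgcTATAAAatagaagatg
Mmp10: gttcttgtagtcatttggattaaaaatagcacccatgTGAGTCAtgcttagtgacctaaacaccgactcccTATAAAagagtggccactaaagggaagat
Adamts1: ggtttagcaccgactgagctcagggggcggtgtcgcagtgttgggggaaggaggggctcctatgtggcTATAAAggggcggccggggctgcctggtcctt

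Promoter windows (250 bases before to 50 after the start, searched on both strands) were matched for 32 of the 46 members. An AP-1 match lay in 8 members, against 8.97% of all 27025 genes in the table, and all 8 were in the chromosome 9 cluster (*Mmp13*, *Mmp12*, *Mmp1b*, *Mmp3*, *Mmp1a*, *Mmp10*, *Mmp20* and *Mmp7*). In *Mmp3* it began 46 bases before the start, in *Mmp13* 35 and in *Mmp10* 63. TATAAA lay in 11 members (15.7% of all genes). It began 7 bases before the start in *Mmp3*, 16 in *Mmp13*, 29 in *Mmp10* and 32 in *Adamts1*. No member window held a CArG box, the type of site edited in *Tspan2*, and 1.81% of all genes did. No match says only that these letters are not in this window.

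The question of the HDR comparison was whether the protease and inhibitor genes differed between *sg/sg* and wild-type aorta. None of the 32 members tested was called at an adjusted p under 0.05. Over all 16423 genes tested, 0.00609% were called (*Tspan2* alone). At an unadjusted p under 0.05, edgeR gave 0 of 32 members, and 1.98% of all genes. DESeq2, run without that filter on low counts, tested 46 members and called 0. At an unadjusted p under 0.05 it gave 2 members, 1 higher and 1 lower. Of its 42879 genes, 342 were higher and 342 lower at that threshold. Limma-voom called 0 members and gave 0 at an unadjusted p under 0.05. No member had wild-type and mutant libraries without overlap, which was so for 0.317% of all genes. The median log2 fold change of the members was -0.07, with 10 above 0 and 22 below, and that of all genes tested was 0.00. Of the 32 members, 30 lay within 0.5 of 0 on the log2 scale, and of all genes 94.5%.

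*Timp3* was at 1048, 1144, 1144, 1153 and 1377 CPM in HDR wild-type and at 1206, 1252, 1279, 1369 and 1373 CPM in *sg/sg* libraries. The groups overlapped, with a log2 fold change of 0.14 ± 0.12 (SE, edgeR adjusted p = 1.00). *Mmp2* was at 148, 160, 171, 186 and 204 CPM in wild-type and at 120, 145, 158, 167 and 171 CPM in *sg/sg* libraries. Its log2 fold change was -0.19 ± 0.13 (SE). *Adamts1* was at 223, 238, 295, 338 and 385 CPM in wild-type and at 203, 305.1, 337, 394 and 481 CPM in *sg/sg* libraries. The *sg/sg* libraries held both the lowest and the highest value, with a log2 fold change of 0.22 ± 0.22 (SE).

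Of the remaining members, *Adamts16* and *Mmp19* lay more than 0.5 from 0 on the log2 scale. The lowest unadjusted p of an HDR member was that of *Mmp19*, a basement membrane protease, at a log2 fold change of -0.51 ± 0.24 (edgeR adjusted p = 1.00). Its wild-type libraries ran from 16.5 to 43.6 CPM and its *sg/sg* libraries from 15.4 to 21.8. *Adamts12*, which cleaves cartilage oligomeric matrix protein, had a log2 fold change of -0.40 ± 0.23. Summed macrophage markers were at 625 CPM in wild-type library 6, 235 to 368 CPM in the other wild-type and 177 to 326 CPM in *sg/sg* libraries. Of these 6 markers, 4 were lower in *sg/sg* at an unadjusted p under 0.05. Their part in these values was not tested, and in bulk aorta fewer cells of a type and less RNA per cell cannot be told apart.

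**Figure D2:**
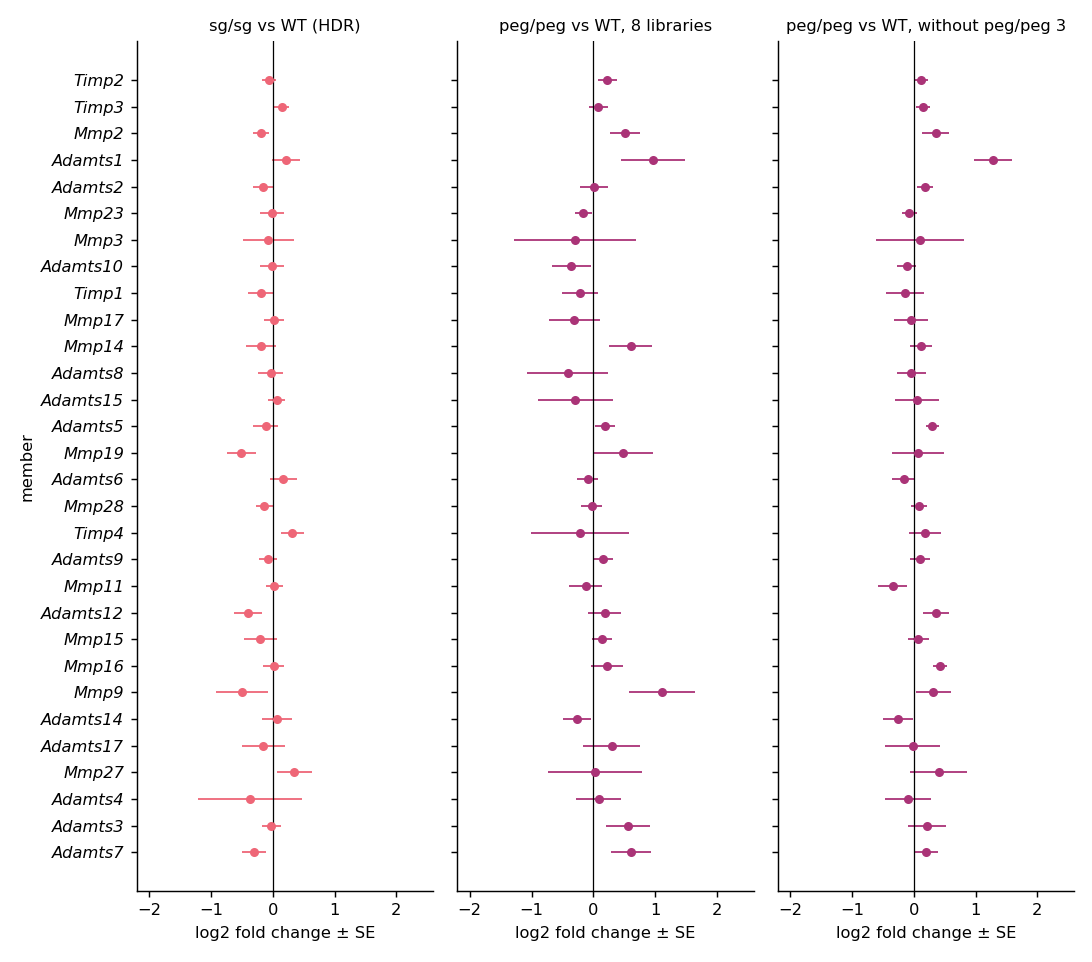
Log2 fold change (mutant against wild type) with its standard error from edgeR, for members with a mean of at least 0.3 RPKM over the wild-type groups, in the HDR experiment (5 against 5 libraries), the PE2 experiment (4 against 4) and the PE2 experiment without *peg/peg* 3 (4 against 3). HDR points lie near 0, the PE2 error bars of *Mmp3*, *Adamts8* and *Timp4* narrow without that library, and *Adamts1* is the point farthest to the right in the last panel.

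In the PE2 experiment none of the 36 members tested was called by edgeR, and 0.0061% of all 16401 genes were (*Tspan2* alone). DESeq2 and limma-voom also called 0 members. At an unadjusted p under 0.05 there was 1 member, *Adamts19*, against 4.3% of all genes. No member separated the genotypes without overlap, against 2.54% of all genes. The median log2 fold change was 0.06 over the members, with 20 above 0 and 16 below, and 0.01 over all genes. The median standard error of the members was 0.354 against 0.206 in the HDR fit, or 0.262 without *peg/peg* 3. Over all genes tested it was 0.222 against 0.193, or 0.189 without *peg/peg* 3. Group sizes and the members tested differ between these fits.

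*Adamts19* stood apart in 1 library. It was at 0.05, 0.10, 0.10 and 0.33 CPM in wild-type libraries, at 0.19, 0.66 and 0.26 in *peg/peg* 1, 2 and 4, and at 3.32 in *peg/peg* 3. Its log2 fold change was 2.90 ± 1.05 with all 8 libraries (edgeR adjusted p = 0.861), and 1.31 ± 0.72 without *peg/peg* 3 (adjusted p = 0.989).

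Most members lay outside the range of the other libraries in *peg/peg* 3. It held the lowest value of 15 and the highest of 9 of the 36 members tested, that is 66.7% of them, and an extreme value of 59.0% of all genes tested. It was over 2-fold beyond the range of the other 7 libraries for 10 members (27.8%) and for 14.3% of all genes. Among the proteases below the others were *Mmp3*, at 1.69 CPM against 14.5 to 99.3, *Adamts8*, at 4.72 against 43.4 to 83.0, and *Adamts15*, at 12.7 against 43.2 to 149. *Mmp27* was at 0.154 CPM against 0.827 to 2.85, and *Adamts10* at 85.4 against 203 to 307.7. Above the others were *Mmp9*, at 28.8 CPM against 4.26 to 9.17, and *Mmp14*, at 287 against 86.7 to 142. *Mmp10*, which had no count in the other 7, was at 0.901 CPM.

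**Figure D3:**
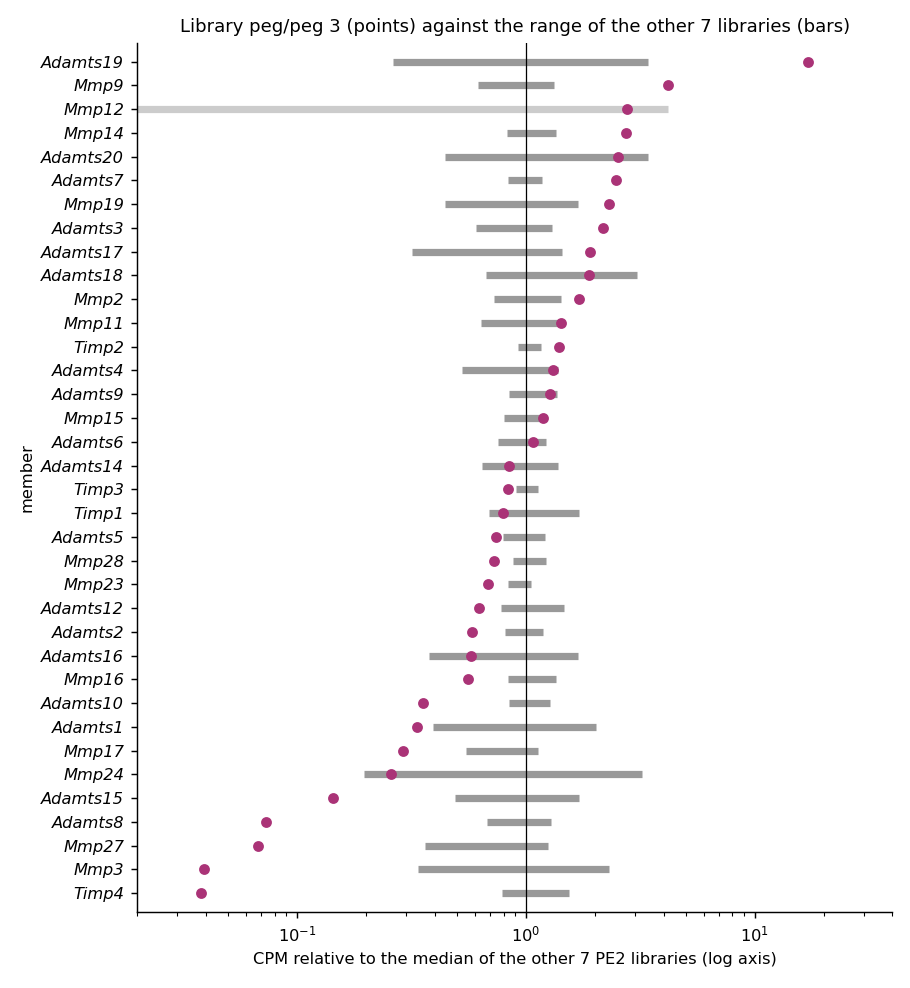
CPM of each tested member in the library *peg/peg* 3 (points), divided by the median of the other 7 PE2 libraries, on a log axis. Bars give the range of those 7 (the pale bar of *Mmp12* runs on to 0). The points of *Timp4*, *Mmp3*, *Mmp27*, *Adamts8* and *Adamts15* lie to the left of their bars, and those of *Adamts19*, *Mmp9*, *Mmp14* and *Adamts7* to the right.

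Without *peg/peg* 3, 37 members were tested and edgeR again called none, against 0.012% of all 16668 genes. At an unadjusted p under 0.05 there were 3 higher members (*Adamts1*, *Adamts5* and *Mmp16*) and 1 lower (*Mmp13*), against 4.1% of all genes. The libraries of *Adamts1* and *Mmp16* did not overlap between genotypes, 2 of 37 members against 5.22% of all genes, so that the share of members was near the background. The median log2 fold change was 0.08 over the members, with 22 above 0 and 15 below, and -0.01 over all genes.

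*Adamts1* was at 58.7, 102, 107 and 149 CPM in PE2 wild-type libraries, and at 302, 281 and 182 CPM in *peg/peg* 1, 2 and 4. In *peg/peg* 3 it was at 49.97 CPM, below every wild-type library. With all 8 libraries the log2 fold change was 0.97 ± 0.52 (edgeR adjusted p = 0.861). Without *peg/peg* 3 it was 1.28 ± 0.30 (edgeR adjusted p = 0.681), that is 2.43-fold. On these 7 libraries DESeq2 called it, with a log2 fold change of 1.29 ± 0.30 and an adjusted p of 0.00822, and 0.35% of all genes. It was the 1 member called by any tool, in 1 of the settings run, and limma-voom gave an adjusted p of 0.884. Leaving out 1 more library in turn gave log2 fold changes of 1.09 to 1.51.

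Genes of 2 other lists were also higher in the same libraries. Of 8 immediate early genes, the transcripts induced within minutes of a stimulus, 7 were higher at an unadjusted p under 0.05 without *peg/peg* 3, and 6 with it. Their summed CPM was 195 to 357 in wild-type libraries, 585 to 802 in *peg/peg* 1, 2 and 4 and 400 in *peg/peg* 3. *Fos* was at 4.93 to 43.2 CPM in wild-type libraries, 88.8 to 105 in those 3 and 23.3 in *peg/peg* 3. Of 5 glucocorticoid-responsive genes, 3 were higher at that threshold without *peg/peg* 3 and 2 with it. Their summed CPM was 79.9 to 132 in wild-type libraries, 213 to 314 in *peg/peg* 1, 2 and 4 and 137 in *peg/peg* 3. None of these 13 genes was called by edgeR. Their part in the value of *Adamts1* was not tested. In the HDR libraries, where *Adamts1* overlapped, the immediate early sum was 281 to 663 CPM in wild-type and 304 to 771 in *sg/sg* libraries.

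**Figure D4:**
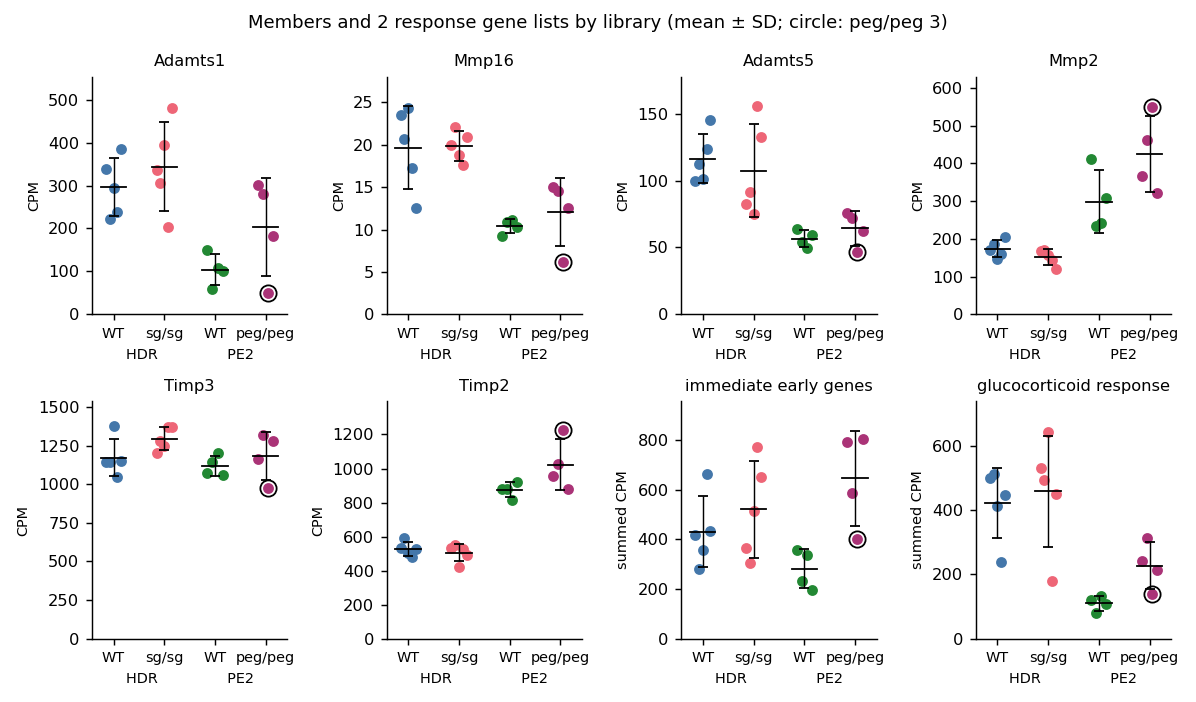
CPM of *Adamts1*, *Mmp16*, *Adamts5*, *Mmp2*, *Timp3* and *Timp2*, and summed CPM of 8 immediate early and 5 glucocorticoid-responsive genes, in each library. Lines and bars are the mean ± SD of each group (5, 5, 4 and 4 libraries), and the ring marks *peg/peg* 3. Without the ringed point, *Adamts1* and both gene lists lie higher in *peg/peg* than in PE2 wild-type libraries.

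*Adamts5*, the major aggrecanase, is the neighbour of *Adamts1* on chromosome 16. *Adamts1* spans 85793827 to 85803113 and *Adamts5* spans 85856173 to 85901828 (GRCm38), both on the minus strand. *Adamts5* was at 49.5, 54.1, 59.1 and 63.9 CPM in wild-type libraries, at 76.0, 72.2 and 62.5 in *peg/peg* 1, 2 and 4, and at 46.3 in *peg/peg* 3. The groups overlapped also without *peg/peg* 3, with a log2 fold change of 0.18 ± 0.16 with it and 0.30 ± 0.11 without (edgeR adjusted p = 0.862 and 0.989). *Mmp16*, a membrane-type MMP, was at 9.25, 10.3, 10.9 and 11.1 CPM in wild-type libraries, at 15.03, 14.5 and 12.5 in *peg/peg* 1, 2 and 4, and at 6.22 in *peg/peg* 3. Its log2 fold change was 0.22 ± 0.26 with that library and 0.42 ± 0.12 without (edgeR adjusted p = 0.881 and 0.989). *Mmp13*, whose level was 0.501 CPM or less in all PE2 libraries, had a log2 fold change of -1.70 ± 0.73 without *peg/peg* 3.

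The other main members of the PE2 experiment overlapped between genotypes. *Mmp2* was at 233.8, 242, 307.2 and 412 CPM in wild-type libraries, at 368, 462 and 323 in *peg/peg* 1, 2 and 4, and at 550 in *peg/peg* 3. Its log2 fold change was 0.51 ± 0.24 with that library and 0.35 ± 0.22 without (edgeR adjusted p = 0.861 and 0.989). Summed adventitial fibroblast markers were at 1058 to 2654 CPM in wild-type and 1772 to 3769 in *peg/peg* libraries, with the highest value in *peg/peg* 3. Their part in *Mmp2* was not tested. *Timp3* was at 1060, 1072, 1147 and 1201 CPM in wild-type libraries, at 1164, 1322 and 1280 in *peg/peg* 1, 2 and 4, and at 976 in *peg/peg* 3. Its log2 fold change was 0.08 ± 0.16 with that library and 0.16 ± 0.11 without (edgeR adjusted p = 0.921 and 0.989). *Timp2* was at 816 to 922 CPM in wild-type and 879 to 1027 CPM in *peg/peg* 1, 2 and 4, and at 1227 CPM in *peg/peg* 3.

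Whether the mutants' changes differed from each other was tested as an interaction over all 18 libraries. None of the 35 members tested was called, against 0.0% of 18094 genes. At an unadjusted p under 0.05 were 5.13% of all genes, 707 with the PE2 change above the HDR change and 222 with it below. At that threshold there were 4 members, with the PE2 change above in each, as in most such genes. These were *Mmp2* (difference in log2 fold change 0.69 ± 0.25), *Adamts7*, a protease of cartilage oligomeric matrix protein (0.90 ± 0.36), *Mmp9* (1.601 ± 0.70) and *Adamts19* (3.67 ± 1.33). *Peg/peg* 3 held the highest PE2 value of all 4. Without it 3 members were at that threshold, against 3.28% of all genes, namely *Mmp2* (0.54 ± 0.24), *Adamts1* (1.063 ± 0.39) and *Adamts12* (0.74 ± 0.34). The smallest edgeR adjusted p of a member was 0.911 with all libraries. Age, labelled strain and table differ between the experiments as the edits do, and cannot be told apart.

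Within the HDR experiment the library numbers in the column names marked a larger difference for some members than genotype did. In both genotypes, libraries 5 and 6 lay apart from libraries 2 to 4. The numbers are not those of the labels. Summed Y-linked transcripts were at 339 to 402 CPM in libraries 5 and 6 and at 0.047 CPM or less in the others, and elastin was at 1763 to 2915 CPM against 430 to 806. The labels list 3 females and 2 males in each genotype, and the Y-linked sums divide the libraries in the same numbers. Sex and library number therefore cannot be told apart, also where the number class is a covariate. Of the 32 members, 5 were higher without overlap in libraries 5 and 6 and 1 was lower, that is 18.8%, against 19.7% of all genes tested, so the share of members was near that of all genes. The split was noticed in these values and was not tested.

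*Adamts4* had the largest ratio of those 6. It was at 0.397 to 1.11 CPM in libraries 2 to 4 and at 3.99 to 5.75 CPM in libraries 5 and 6 (7.69 times the mean). *Mmp3* was at 35.5 to 51.7 CPM against 93.0 to 117 (2.56 times the mean). *Mmp14*, *Mmp23* and *Adamts5* had means 1.604, 1.53 and 1.49 times those of libraries 2 to 4, and *Adamts10* was lower, at 190 to 258 CPM in libraries 2 to 4 and 134 to 178 in libraries 5 and 6. The values of *Adamts4* are uncertain, since the strand setting of the counting is not stated.

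**Figure D5:**
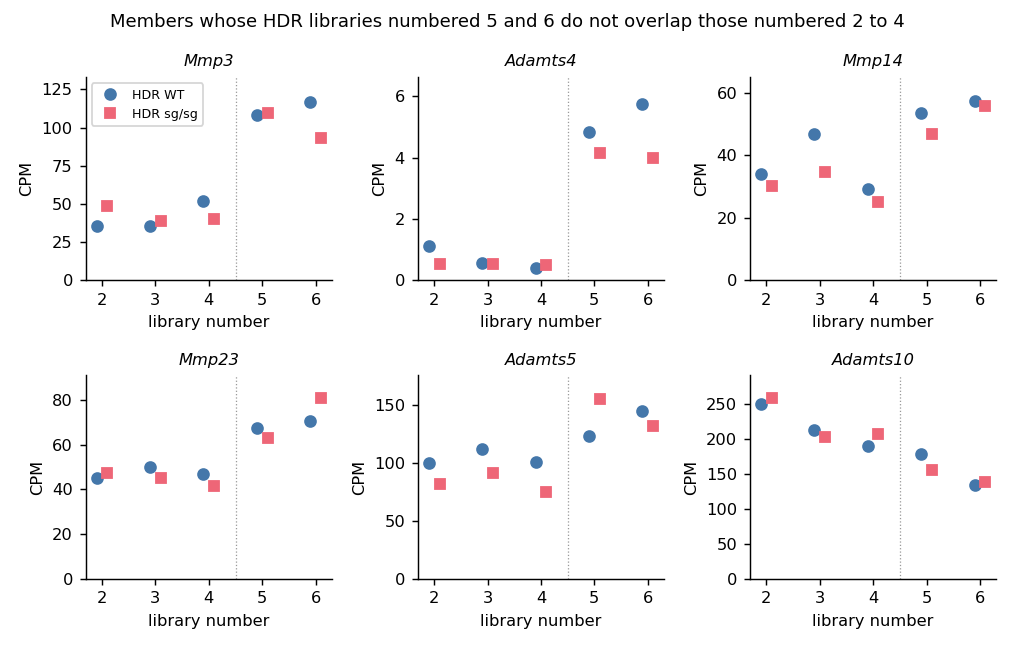
CPM of *Mmp3*, *Adamts4*, *Mmp14*, *Mmp23*, *Adamts5* and *Adamts10* in the 10 HDR libraries by their number in the table (circles wild type, squares *sg/sg*). The dotted line divides numbers 2 to 4 from 5 and 6. Both genotypes lie on the same side in each class, with *Adamts10* lower and the others higher in libraries 5 and 6.

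With the number class as a covariate, edgeR again called 0 members in the HDR comparison, and 2 were at an unadjusted p under 0.05, *Adamts12* (log2 fold change -0.36 ± 0.16) and *Mmp19* (-0.45 ± 0.20), against 3.2% of all genes. Within libraries 2 to 4 alone there were 3 at that threshold, *Timp4* (0.60), *Mmp27* (0.67) and *Adamts5* (-0.34), against 2.06% of all genes. Within libraries 5 and 6 alone there were 5, all lower in *sg/sg*, namely *Mmp2* (-0.47), *Mmp19* (-0.93), *Adamts2* (-0.41), *Adamts12* (-0.61) and *Adamts16* (-1.45). In that fit 10.4% of all genes were at the threshold, and 7.3% were at it and lower. With the column number as a block 2 members were at the threshold, *Adamts12* (-0.35) and *Mmp14* (-0.21), against 2.51% of all genes. No member was at that threshold in both number classes, and no adjusted p was under 0.05.

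The genes that work with these proteases were read from a list of 64, comprising ADAMTS-like proteins, ADAMs, other protease inhibitors, plasminogen activators, cathepsins, procollagen C-proteinases, proprotein convertases, MMP inducers and substrates. EdgeR called none of the 59 tested in HDR aorta or the 60 tested in PE2 aorta. *Bmp1*, the procollagen C-proteinase, was at 103 ± 6.64 CPM in *sg/sg* and 123 ± 10.8 in wild-type libraries (log2 fold change -0.25 ± 0.10). It was the 1 listed gene at an unadjusted p under 0.05 in HDR aorta, against 1.98% of all genes tested. *Adam23*, a non-catalytic ADAM, was the 1 such gene in PE2 aorta, against 4.3% of all genes tested. It was at 5.24 to 101 CPM in *peg/peg* libraries, but at 5.24 to 15.1 CPM without *peg/peg* 3, where it was no longer at that threshold.

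Without *peg/peg* 3, 4 of 61 such genes were higher at an unadjusted p under 0.05 and none was lower. Of all 16668 genes tested there, 4.1% were at that threshold, with 365 higher and 318 lower. Among the 4 listed genes, *Reck*, a membrane-anchored inhibitor of MMPs, was at 65.2 to 74.1 CPM in wild-type libraries and 80.4 to 98.8 CPM in *peg/peg* 1, 2 and 4 (log2 fold change 0.37 ± 0.10). *Lrp1*, an endocytic receptor that clears proteases bound to their inhibitors, had a log2 fold change of 0.29, and *Adamtsl2*, an ADAMTS-like protein that binds fibrillin, one of 0.67. The list's median was 0.09, and that of all genes -0.01.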

How the data were processed

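Total RNA of snap-frozen aortae was sequenced as polyadenylated mRNA. The authors trimmed reads with fastp, aligned them with STAR 2.7.0f to GRCm38 (Gencode annotation) and deposited raw counts per gene symbol made with featureCounts (Subread 1.6.4). Their normalized values were not used. The number of per-sample columns left unused was 0. HDR columns were assigned to genotypes by name, and PE2 columns to samples. The members and gene lists were chosen with earlier results of these data known.

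Each experiment was fitted on the whole table with edgeR 4.0.16 in R 4.3.3 (TMM, filterByExpr, glmQLFit, glmQLFTest, no covariate), with Benjamini-Hochberg adjustment over all genes tested and a threshold of 0.05. The interaction used all 4 groups. DESeq2 1.42.0 and limma 3.58.1 (voom) were alternatives, and scripts were tested on simulated counts. RPKM is TMM-scaled CPM per kilobase of merged exons in Gencode M21 (GRCm38). Python 3.11.15 with pandas 2.3.3 made the summaries.

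Described in full were *Mmp2*, *Adamts1*, *Timp3*, members at an unadjusted edgeR p under 0.05, members without overlap and members called by any tool. Other members were chosen after their values were seen. Same-numbered PE2 libraries did not deviate together (correlations of -0.29 to 0.0163 over genes). No 2 libraries of the same group agreed within counting noise (lowest chi-square per degree of freedom 17.2). Counting at these depths covers sampling error only. Some genes of the lists are not reported here.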

Additional observations from a re-analysis of the deposited data

Results flagged for a closer look

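Dixon's ratio, the gap of an extreme library to its nearest neighbour over the whole range, was computed in 136 sets of values (each tested member in each group of 4 or 5 libraries), and 9 exceeded the 95% critical value, where chance flags about 1 set in 20. Of these, 5 were in *peg/peg* 3, described above as standing apart. There *Adamts10* was lowest at 85.4 CPM (221 to 243 in the other *peg/peg* libraries), and *Adamts19* was highest at 3.32 CPM (0.194 to 0.662), *Adamts3* at 4.02 CPM (1.85 to 2.06), *Adamts7* at 9.55 CPM (3.70 to 4.56) and *Mmp9* at 28.8 CPM (6.88 to 7.98). In the HDR *sg/sg* group *Adamts12* was highest in library 5 at 41.2 CPM (26.2 to 27.7 in the others), *Mmp15* in library 5 at 12.3 CPM (6.73 to 8.19) and *Timp4* in library 4 at 39.8 CPM (24.4 to 28.4). In PE2 wild-type library 1, *Adamts15* was highest at 109 CPM (83.6 to 87.7).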

How the results depend on the processing

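No alternative called an HDR member or a difference between the experiments, and in PE2 aorta only DESeq2 without *peg/peg* 3, chosen after seeing the data, called any (1, *Adamts1*). Members at an unadjusted p under 0.05 in the HDR comparison (0) numbered 2 with DESeq2, 4 without a filter on low counts, 2 with the number class as a covariate, 2 with a replicate block by column number, 3 in libraries 2 to 4, 5 in libraries 5 and 6, and 0 to 3 with 1 library left out. In the PE2 comparison (1) they numbered 4 with DESeq2, 0 with limma-voom, 2 without a filter, 0 with at least 10 counts in every library and 0 to 4 with 1 library left out. Without *peg/peg* 3 they numbered 4 with DESeq2, 3 with limma-voom, 3 with DESeq2 size factors, 4 without a filter, and 2 to 6 with 1 more library left out. Counts over all genes moved with the setting too, so these numbers are not a result about the members. At that threshold 58 genes were higher and 267 lower of 16423 in the main HDR fit, and 1964 and 624 of 42968 without a filter. In the main PE2 fit they were 498 and 208 of 16401, and 969 and 586 of 16787 without *peg/peg* 4. Without *peg/peg* 3 they were 365 and 318 of 16668, and 417 and 380 of 16420 with wild-type library 3 also left out. The cause of these differences was not tested. PE2 libraries that share a number did not pair, and the replicate block left 1 member at that threshold (*Adamts19*, log2 fold change 2.41) and called 0. With sex as a covariate or in female libraries alone, 1 member was at that threshold and 0 were called. The numbers in the HDR column names are not those of the labels and did not pair the libraries (same-numbered correlations of -0.205 to 0.574), and the block by them called 0.

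Without *peg/peg* 3 the PE2 log2 fold change changed sign for 6 of 36 members (*Adamts15*, *Adamts17*, *Adamts4*, *Mmp28*, *Mmp3* and *Timp4*), that is 16.7%, against 22.5% of all genes. Of the members given fold changes, *Timp4* and *Mmp27* in HDR were at -0.086 and -0.30 in libraries 5 and 6, and *Adamts2* was at 0.049 in libraries 2 to 4. *Adamts5* in HDR was at 0.095 in libraries 5 and 6. *Mmp16* in HDR ran from -0.11 to 0.11 with 1 library left out and was at -0.17 in libraries 2 to 4. *Mmp19* in PE2 (0.49 with all libraries), with *peg/peg* 3 and 1 more library left out, was at -0.056, -0.13 or -0.16 in the cases below 0 and at 0.50 at most. With 1 library left out, *Adamts12* in PE2 ran from -0.036 to 0.35 and the *Timp3* interaction from -0.15 to 0.012. Group means of the members moved by less than 1 SD without TMM factors. With 3 to 5 libraries a group, differences within these standard errors could not be detected, and larger ones could also go uncalled. An example is *Adamts1* without *peg/peg* 3 (log2 fold change 1.28 ± 0.30, edgeR adjusted p = 0.681).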
